A study of Homo sapiens with 4 samples.

Results

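Filaggrin (FLG), cornulin (CRNN), CRCT1 and 7 late cornified envelope genes (LCE1A, LCE1C, LCE2A, LCE3A, LCE3B, LCE3C and LCE3D) were followed on 4 arrays of Ca9-22 cells. The 10 genes were chosen by name, and 13 array probes carry a transcript of one of them. They are 10 of 27708 genes with a probe and 10 of the 19540 genes that were bright enough to be tested. The choice was made with the difference between control and knockdown known, so that difference is described below for these genes and is not tested.

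Ca9-22 cells are an established cancer line grown from a gingival squamous carcinoma. RNA was taken 3 days after transfection from 2 control cultures and 2 cultures with knockdown of KPNA4, an importin alpha that carries proteins into the nucleus. Every culture was the same cell line in the same serum-containing medium, and the design calls the 2 cultures of a condition biological replicates. The labels name the silencing reagent as siRNA whereas the study's text describes short hairpin RNA, and nothing in the labels says which target sequence each knockdown culture received.

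The cornified envelope is the protein shell that replaces the plasma membrane of a dying keratinocyte in skin and, in a softer form, in the mouth and oesophagus. Most of its building blocks are encoded side by side in the epidermal differentiation complex on the long arm of chromosome 1. Profilaggrin is stored in keratohyalin granules, is cut into filaggrin units that bundle keratin filaments, and is later broken down into the amino acids that keep the surface moist. Late cornified envelope proteins are small and rich in cysteine and glycine, and transglutaminases fix them to the envelope at the end of the program.

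The start regions of 4 of these genes are shown because they are the DNA that the array readings of mRNA bear on. In 3 of them the letters TATAAA stand at the usual distance of a TATA box, and 1 lacks these exact letters. Near matches, such as gataaa in the LCE3D line, were not searched. Each line is the 120 bases up to the transcription start in RefSeq (assembly GRCh38.p14), read along the gene's own strand. The capitals mark TATAAA (a common form of the TATA box), the AP-1 element TGANTCA and the Krüppel-like factor element CACCC, searched on both strands. None of the marked motifs overlap each other. FLG lies at chr1:152325240-152325359 on the minus strand, CRNN at chr1:152414264-152414383 on the minus strand, LCE2A at chr1:152698225-152698344 on the plus strand and LCE3D at chr1:152580517-152580636 on the minus strand.
FLG: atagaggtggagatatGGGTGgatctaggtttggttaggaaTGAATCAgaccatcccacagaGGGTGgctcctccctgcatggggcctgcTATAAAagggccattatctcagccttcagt
CRNN: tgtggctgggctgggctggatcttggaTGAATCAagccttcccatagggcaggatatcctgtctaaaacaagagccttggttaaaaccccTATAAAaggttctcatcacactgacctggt
LCE2A: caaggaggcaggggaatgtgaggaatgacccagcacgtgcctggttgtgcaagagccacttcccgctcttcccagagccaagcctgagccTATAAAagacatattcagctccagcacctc
LCE3D: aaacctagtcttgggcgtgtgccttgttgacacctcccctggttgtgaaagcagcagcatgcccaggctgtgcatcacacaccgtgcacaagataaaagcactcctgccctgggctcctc

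FLG, CRNN and LCE2A each held TATAAA with its first base at -30 from the start. FLG and CRNN, close together in the complex and both members of the S100 fused-type family, also held TGANTCA, at -79 and -93. Windows from 250 bases before to 50 bases after the start were given for 9 of the 10 genes (all but CRCT1). TATAAA was in 4 of these 9 and in 12% of all 27305 windows of the same table, TGANTCA in 2 of 9 and in 7.76%, and CACCC in 4 of 9 and in 58.9%. None of the 3 motifs was in the window of LCE3B, LCE3C or LCE3D, which says only that these letters are not there. The windows shared 51.1% of their aligned bases at the median of 36 pairs (range 45.4% to 67.9%). The closest pairs were LCE3A with LCE3B at 67.9% and LCE3C with LCE3D at 63.4%.

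The silencing was read first. KPNA4 stood at 4.02 and 4.03 in the control cultures and at 2.36 and 2.05 in the knockdown cultures, as log2 processed signal relative to the 75th percentile of the array, the scale used throughout. It fell by 1.82 ± 0.12 (SE; limma, adjusted p = 0.001827), a 3.53-fold reduction. Over all 19540 genes, 3974 (20.3%) rose and 5764 (29.5%) fell at an adjusted p of 0.05 in limma, and the median difference was -0.10. These counts depend on the scaling and on the arrays: without scaling 11256 rose and 1046 fell, without knockdown culture 1 2117 and 2794, and without knockdown culture 2 2039 and 2205. With 2 cultures in each group, these p-values measure only the spread between those cultures. The probes well above background numbered 23949 to 24245 of 34127 on an array, where well above background is the scanner software's own call for a spot. All 13 markers of stratified squamous epithelium, among them KRT5, KRT14 and TP63, were well above background on every array, and 8 rose and 3 fell. Of 9 fibroblast markers 5 were tested (3 rose, 1 fell), of 9 leukocyte markers 6 (1 rose, 4 fell), of 6 endothelial markers 2 (both fell) and of 5 melanocyte markers 3 (1 rose, 1 fell). Well above background on all 4 arrays were COL1A1 and COL1A2 (which rose by 1.62 and 1.24), DCN, CD14, CD68, ITGAM, PTPRC, CDH5, VWF, DCT, MLANA and PMEL, and on some arrays PDGFRB, LUM, CD3E, MS4A1 and CLDN5. Among those not well above background on any array were COL3A1, PDGFRA, POSTN, THY1, NKG7, KDR, PECAM1, TEK, TYR and TYRP1. The part of these markers in the results below was not tested.

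Of the 10 genes, 8 had a probe that was well above background on all 4 arrays, and FLG and CRNN were not. The knockdown readings lay below both control readings for 6 genes, beside 48.2% of all genes tested, above both for 1, beside 31.7%, and overlapped for 3. Only LCE3D was lower by at least 2-fold, as were 3.47% of all genes, and none was higher by that much, as were 5.42%. The differences ran from -1.07 for LCE3D to 0.28 for LCE3A with a median of -0.30. All 10 had passed the filter on dim probes, FLG and CRNN through their control arrays alone, which by itself favours a lower reading in the knockdown cultures.

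**Figure D1:**
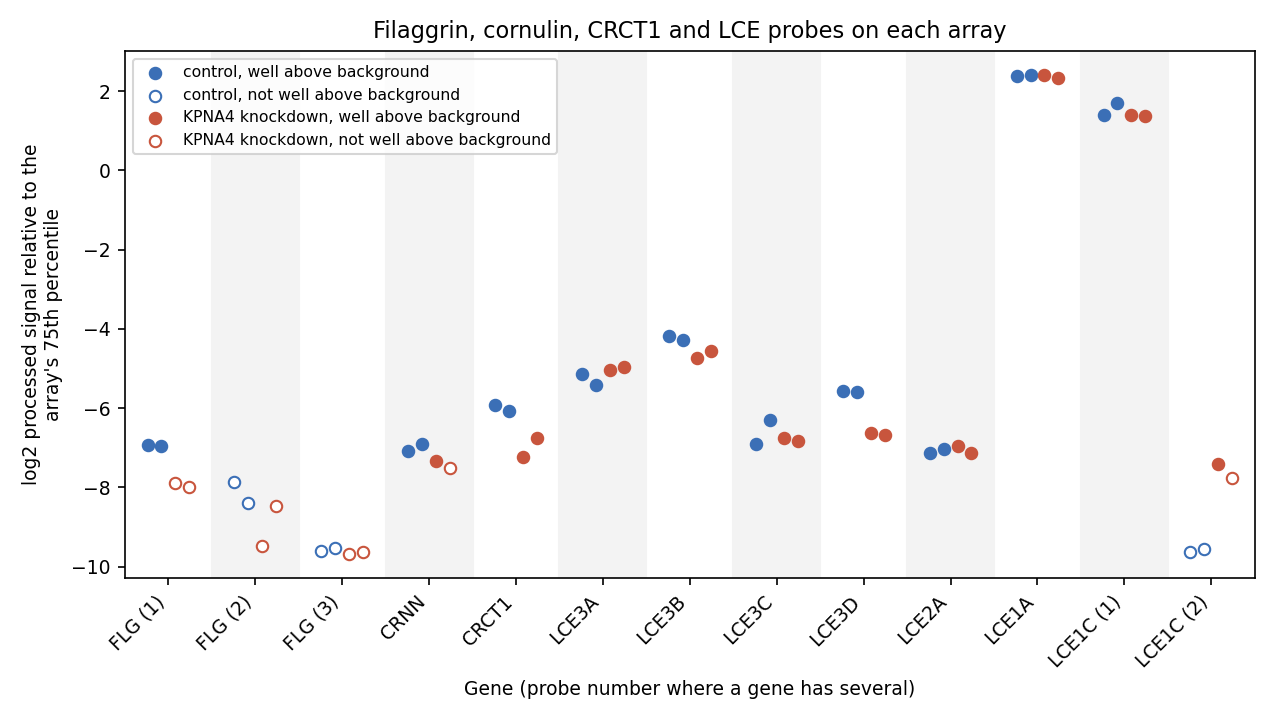
Log2 processed signal relative to the array's 75th percentile (vertical axis) of each of the 13 probes, with 1 point per array, 2 control (blue) and 2 KPNA4 knockdown (red), and open points where the probe was not well above background. The knockdown points of FLG probe 1, CRCT1 and LCE3D sit about 1 unit below the control points, those of LCE1A and LCE2A lie among them, and the 2 LCE1C probes move differently; (1) marks the probe that represents a gene, and levels of different probes are not comparable.

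FLG, the granule protein, was measured by 3 probes, and the brightest (A_33_P3261328) represents it. It read -6.94 and -6.97 in the controls and -7.89 and -7.98 in the knockdown cultures, well above background in both controls and in neither knockdown culture. Its measured difference was -0.98. The dimmest signal called on each knockdown array, taken as the limit, put it 1.62-fold lower on the scaled readings. That is no firm lower bound, since CRNN spots at 11.49 and 12.04 were not called on the same 2 arrays. The processed signals of FLG were 11.9 and 11.04 against 8.18 and 8.28. Unscaled, the limits were 10.49 and 9.62, only a little below its control signals. The software's own error put the 4 FLG signals at 5.14, 4.70, 3.09 and 2.99 times their uncertainty. The groups did not overlap, but the raw spot intensity changed little: 51.5 and 49.5 in the controls and 48 and 48 after knockdown, over a local background of 26.5, 30, 32 and 28. The other 2 FLG probes were not well above background on any array. The first of them (A_24_P51322) read -7.88 and -8.40 against -9.47 and -8.46, the other (A_32_P387648) -9.61 and -9.52 against -9.67 and -9.63. FLG readings were therefore near the limit of detection in all 4 cultures.

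CRNN encodes cornulin, a calcium-binding protein that is abundant in the squamous lining of the mouth and oesophagus. Its scaled readings were -7.09 and -6.91 in the controls and -7.33 and -7.51 in the knockdown cultures, a difference of -0.42 with no overlap. The processed signals themselves were 10.8 and 11.5 against 12.02 and 11.5, so the direction turned without the scaling, to 0.08. CRNN is the one gene of the group that was printed 10 times on each array, which gives its technical spread. In control culture 1, 8 of 8 spots without an outlier flag were well above background, and their signals ran from 8.83 to 14.6 around a median of 10.7. In control culture 2, 8 of 9 spots were, from 8.84 to 14.3 around 11.3. In knockdown culture 1, 6 of 10 spots were, from 6.28 to 16.5 around 13.01, and in knockdown culture 2, 3 of 8 spots were, from 8.93 to 14.9 around 11.7. The spots of knockdown culture 1 alone therefore spanned the whole range seen over the 4 arrays, and fewer spots passed the background call after knockdown although their signals were not lower.

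**Figure D2:**
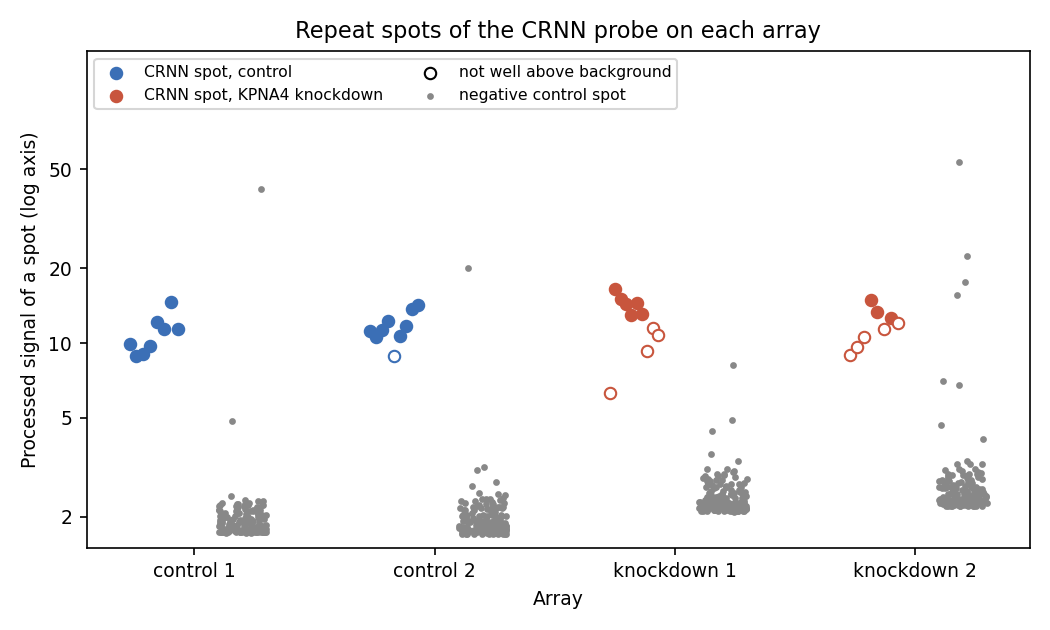
Processed signal (vertical axis, log scale) of each CRNN spot without an outlier flag on the 4 arrays, beside the 153 negative control spots of the same array in gray, and open circles for spots not well above background. CRNN spots overlap between the arrays at about 6 to 16 and lie above nearly all negative control spots, with a median of 1.86 in each control and of 2.29 and 2.45 after knockdown.

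CRCT1 is a small cysteine-rich protein encoded between CRNN and the LCE3 cluster. It read -5.92 and -6.08 in the controls and -7.23 and -6.76 in the knockdown cultures, well above background in all 4. The difference was -0.998 (1.997-fold lower), with an SD of 0.11 between controls and 0.33 between knockdown cultures. It was also lower before scaling, at processed signals of 24.2 and 20.5 against 12.9 and 19.3. On that unscaled signal the 2 knockdown cultures stood further from each other than the higher of them stood from the lower control.

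The LCE3 genes are known for their induction in injured and psoriatic skin, and 4 of the 5 in the cluster are described here. LCE3D read -5.57 and -5.60 in the controls and -6.62 and -6.67 after knockdown, a difference of -1.07 (2.09-fold lower) with SDs of 0.02 and 0.04. Its processed signals were 30.9 and 28.5 against 19.7 and 20.5, so it was lower with and without scaling. LCE3B read -4.17 and -4.27 against -4.72 and -4.56, a difference of -0.42. In processed signal LCE3B was 81.1 and 71.7 against 73.4 and 88.8, groups that overlap. LCE3C overlapped on the scaled readings, at -6.90 and -6.30 against -6.75 and -6.82, a difference of -0.19 with an SD of 0.42 between the controls. LCE3A was the one gene of the 10 that lay higher in both knockdown cultures, at -5.05 and -4.96 against -5.14 and -5.42 in the controls. Its difference was 0.28, and its processed signals were 41.5 and 32.2 in the controls and 58.5 and 67.2 after knockdown. The 4 neighbouring LCE3 genes thus gave differences from -1.07 to 0.28 within 1 cluster.

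LCE2A, of a family usually found in normal skin, read -7.12 and -7.04 in the controls and -6.96 and -7.12 after knockdown. Its groups overlapped, with a difference of 0.04. LCE1A read 2.39 and 2.41 against 2.42 and 2.32, a difference of -0.03, also with overlap. These positive values place the LCE1A probe above the 75th percentile of every array, at processed signals of 7663, 7346, 10343 and 10486.

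LCE1C was measured by 2 probes that disagreed. The brighter one (A_23_P303891) read 1.39 and 1.695 in the controls and 1.39 and 1.37 after knockdown, a difference of -0.16. That difference is smaller than the gap between the 2 controls, and the first control was level with both knockdown cultures, so that it counts as not overlapping by a margin below this rounding. The dimmer one (A_33_P3356821) read -9.63 and -9.55 in the controls, not well above background, and -7.42 and -7.77 after knockdown, where only knockdown culture 1 was well above background. Its processed signals were 1.85 and 1.85 against 11.3 and 9.63. LCE genes are close copies of each other, and which other copies each probe can bind was not tested.

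**Figure D3:**
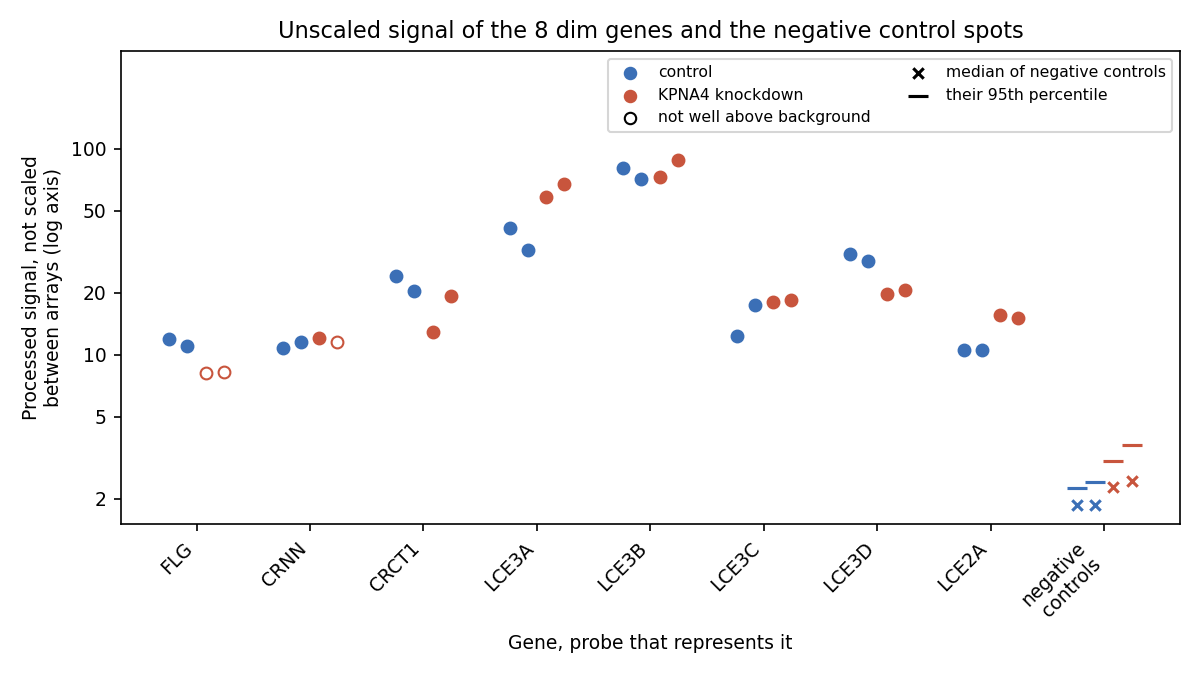
Processed signal before any scaling between arrays (vertical axis, log scale) of the probe that represents each of the 8 dim genes, with 1 point per array (blue control, red KPNA4 knockdown, open where not well above background) and, at the right, the median and 95th percentile of the negative control spots. FLG, CRCT1 and LCE3D are lower after knockdown on this scale, LCE2A, LCE3A and LCE3C are higher, CRNN is higher by a margin hardly visible, LCE3B overlaps, and the negative controls are also higher on the 2 knockdown arrays.

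The knockdown arrays were brighter as a whole, and this bears on every dim gene above. The processed signal had its 75th percentile at 1466 and 1381 in the controls, against 1938 and 2096 after knockdown, so scaling takes 0.50 from each log2 difference. Without scaling, the median over all genes moved from -0.10 to 0.40 and the median of the 10 genes from -0.30 to 0.20. Their distance to all genes, -0.20, cannot differ between these scales, since scaling shifts all genes alike. It was -0.15 with quantile normalization and -0.07 among genes well above background on all arrays. With each array left out it ran from -0.33 to -0.06, and with the normexp correction described below it was 0.81. FLG, CRCT1 and LCE3D stayed lower without scaling, at -0.48, -0.50 and -0.56, whereas CRNN, LCE1C and LCE3B turned to 0.08, 0.34 and 0.08. Probes without a detected signal shifted as well. The 8604 gene probes not well above background on any array had a median scaled difference of -0.17, and the negative control spots differed by -0.16. The difference of LCE3C, a dim gene, was -0.19. With the normexp background correction, which starts from raw spot and local background intensity, no gene of the array passed the adjusted threshold in limma (1164 genes had an unadjusted p under 0.05), and FLG, CRNN, CRCT1, LCE3B and LCE3D turned positive. In bulk RNA, fewer cells that make a transcript and less transcript in each cell cannot be told apart.

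Elsewhere in the epidermal differentiation complex genes rose more often than they fell. Of its other 54 genes, 51 had a probe and 29 were tested. Among these 14 rose (48.3%, beside 20.3% of all genes), 3 fell (10.3%, beside 29.5%) and 12 did not pass, with a median of 0.16. Without scaling 22 of the 29 rose, but so did 11256 of all 19540 genes. SPRR3, a small proline-rich envelope precursor, rose by 6.42 (limma, adjusted p = 0.000304) from -6.49 and -6.32 to -0.13 and 0.16. SPRR1B, of the same family, rose by 4.35 (adjusted p = 0.000309). S100A9, a subunit of calprotectin, rose by 3.13 (adjusted p = 0.001626). Of 8 SPRR genes tested 5 rose and 1 fell, and of 13 S100 genes tested 6 rose and 2 fell. SPRR1A was not called through its brightest probe (0.12, adjusted p = 0.2407 in limma), but its 2 probes disagreed. The dimmer one was not well above background in either control and was at least 35.4-fold higher after knockdown.

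No LCE gene outside the 10 was called. Of the 11 in the list 10 had a probe (LCE7A, outside the list, has none named), 4 were tested and none passed in limma, while 1 of the 4 had an unadjusted p under 0.05. LCE3E, next to LCE3D, differed by 0.04 (adjusted p = 0.7104) and LCE1D, next to LCE1C, by -0.01 (adjusted p = 0.9325). LCE1E differed by -0.20 (adjusted p = 0.6383) and LCE6A, next to LCE1A, by -0.21 (adjusted p = 0.06279). LCE5A, LCE2B, LCE2C and LCE2D were not well above background on any array. The same was true of FLG2 and HRNR, the filaggrin-like genes on either side of FLG, of KPRP and of LORICRIN, the main structural protein of the epidermal envelope. Beyond them, IVL, the envelope scaffold involucrin, rose by 1.48 (adjusted p = 0.002085), TCHH, trichohyalin, rose by 0.67 (adjusted p = 0.008736), and KPLCE, next to LCE4A, differed by -0.63 (adjusted p = 0.05213).

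**Figure D4:**
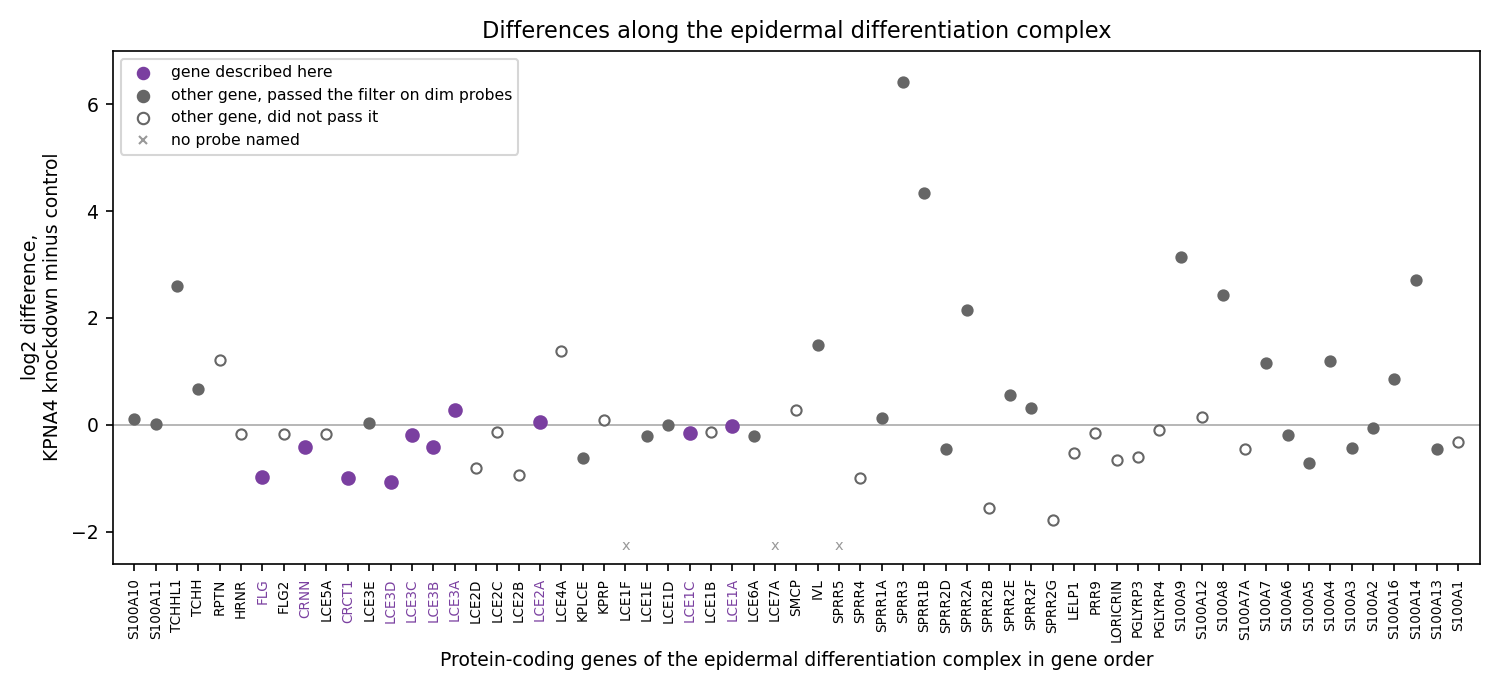
Log2 difference of KPNA4 knockdown minus control (vertical axis) of the protein-coding genes of the epidermal differentiation complex, in gene order, with the 10 genes described here in purple, other tested genes filled gray, genes that did not pass the filter on dim probes open, and a cross where no probe is named. The purple points lie between -1.07 and 0.28, while SPRR3 at 6.42 and SPRR1B at 4.35 are the highest points.

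A list of genes linked to the processing of filaggrin rose in part. Of 20 genes linked to processing profilaggrin and breaking filaggrin down, 17 were tested. Among these 10 rose (58.8%, beside 20.3% of all genes) and none fell in limma (beside 29.5%). In that test 1 had an unadjusted p under 0.05 with a negative difference. The list's median difference was 0.37. KLK5, a kallikrein protease of the outer epidermis, rose by 7.80 (adjusted p = 0.000298) from -5.55 and -5.19 to 2.41 and 2.44. KLK7, a second protease of this family, was not well above background in either control and was at least 9.08-fold higher after knockdown. PADI3, which converts arginines of filaggrin to citrulline, was likewise at least 7.20-fold higher. KLK7 and PADI3 passed the filter through their knockdown arrays alone, which by itself favours a higher reading there. With only genes well above background on all arrays, 8 of 14 in this list rose, beside 3801 of all 18509 such genes. The 10 processing genes called higher rose in cultures in which FLG itself was near the detection limit, and the other 7 tested did not pass. Among the latter were the proteases BLMH (0.08, adjusted p = 0.3637 in limma) and CAPN1 (0.14, adjusted p = 0.3141). CASP14 and HAL did not pass the filter on dim probes. Whether filaggrin was broken down more was not tested.

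Of 24 genes for assembling the envelope and its lipids, 18 were tested. Among these 9 rose (50%, beside 20.3% of all genes) and 5 fell (27.8%, beside 29.5%), with a median of 0.66, or 0.49 with genes undetected in 1 group set to their bound. The 5 became 1 without scaling, and 3 and 2 without knockdown culture 1 and 2. SCEL, the envelope precursor sciellin, rose by 5.18 (adjusted p = 0.000384), and ABCA12, the lipid transporter of lamellar granules, rose by 2.00 (adjusted p = 0.001307). KRT1, a keratin of the suprabasal layers to which filaggrin binds, was at least 5.15-fold higher. It was not well above background in either control and passed the filter through its knockdown arrays alone. With only genes well above background on all arrays, 8 of 16 in this list rose and 5 fell. Of all 18509 such genes 3801 rose and 5779 fell. Among the envelope genes that fell were ALOXE3, a lipoxygenase of barrier lipids, (-1.37), and CSTA, the envelope protein cystatin A (-0.63). Of 46 transcription regulators of late differentiation, 42 were tested. Among these 19 rose (45.2%, beside 20.3% of all genes) and 6 fell (14.3%, beside 29.5%), with a median of 0.28. CEBPA rose by 2.26 (adjusted p = 0.000408), HOPX by 1.83 (adjusted p = 0.000489) and OVOL1 by 1.76 (adjusted p = 0.000724). The 2 HOPX probes disagreed. The other one, also well above background on all 4 arrays, read -3.86 and -4.14 in the controls and -4.09 and -4.26 after knockdown, a difference of -0.17.

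**Figure D5:**
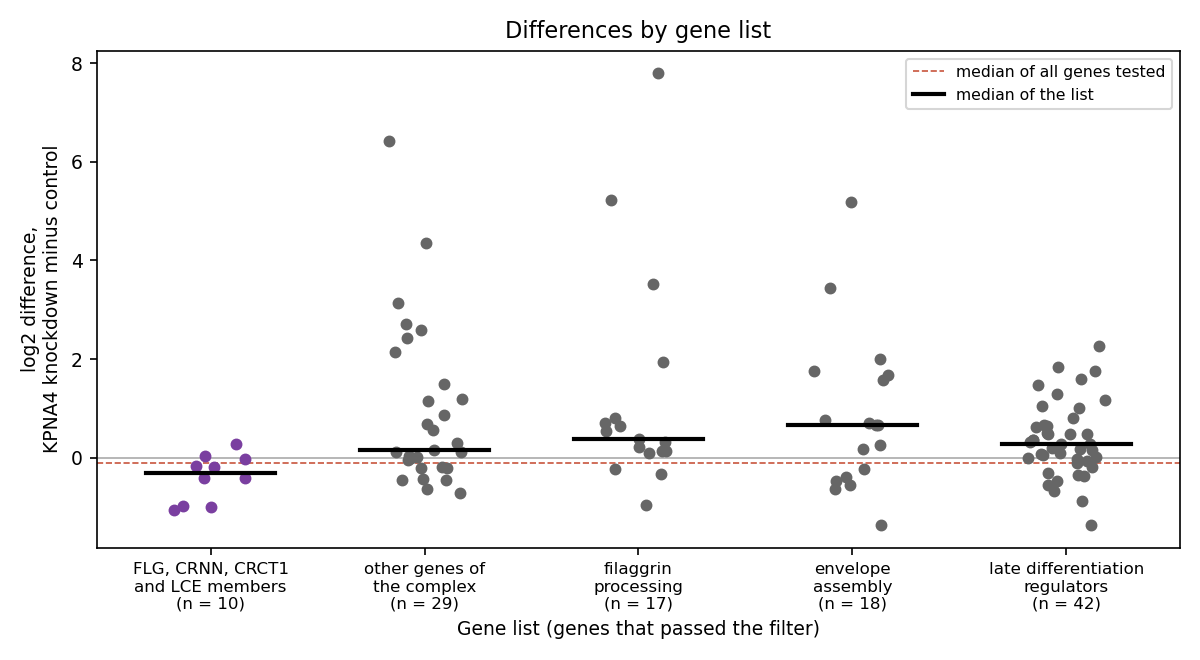
Log2 difference of KPNA4 knockdown minus control (vertical axis) of every gene that passed the filter on dim probes in the 10 genes described here and in 4 lists of related genes, with a bar at each median and a dashed line at the median of all 19540 genes (-0.10). The medians are -0.30 for the 10 genes and 0.16, 0.37, 0.66 and 0.28 for the other genes of the complex, filaggrin processing, envelope assembly and the regulators.

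For each of the 8 genes measured on all 4 arrays, the other genes were ranked by how closely their 4 readings followed its own, as the root mean square difference after each gene's mean was taken away, over 15107 named genes. The nearest to LCE3D was CCDC9B (0.00149). The nearest to CRCT1 was KHDRBS3 (0.0619), to LCE3A ZNF518A (0.0113), to LCE3B ALDH7A1 (0.00731), to LCE3C SIAE (0.0231), to LCE2A TIGD6 (0.0114), to LCE1A AP2M1 (0.004) and to LCE1C ATN1 (0.0126). No gene of the epidermal differentiation complex was among the 3 nearest of any of the 8. With 4 arrays as the only points, this describes these readings and no more.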

How the data were processed

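Total RNA of 4 Ca9-22 cultures was labelled with 1 dye and hybridized to Agilent human arrays. The authors deposited each array's output of Feature Extraction 11.0.1.1 (per the submitters' processing notes), in which the processed signal intensity has background and spatial trend removed and arrays are left unscaled. They also deposited a table of scaled values, a ratio of that signal to the array's 75th percentile, used here as an alternative. Control spots and gene spots flagged as outliers (333 to 355 of 43118) were dropped, log2 values of a probe's spots were averaged, and the array's 75th percentile was subtracted. Saturated gene spots numbered 0.

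A probe entered when, in 1 group or both, each array called more than a share of 0.5 of its spots well above background, and the brightest probe represented a gene. Transcripts were named through RefSeq of GRCh38.p14 (25771 of 34127 probes); the arrays' own grid uses an older build, so only RefSeq windows carry coordinates. Groups, taken from the labels, were compared by lmFit and eBayes of limma 3.58.1 (R 4.3.3) with Benjamini-Hochberg adjustment at 0.05. The steps were also run on simulated data. They recovered 136 of 150 genes changed by 1 but only 10 of 50 changed by 0.5, and called 11 unchanged genes. Far fewer genes changed there than were called in these data (3974 higher and 5764 lower of 19540). The adjusted threshold was therefore not alike, and these rates need not hold here. Smaller differences can still be missed. The 10 genes and all lists were chosen with earlier results of these data known. Genes named are the 10, KPNA4, the 3 largest called differences in each list, neighbours in gene order, and the nearest gene by pattern (of 3 ranked, not all reported here). ALOXE3, CSTA, SPRR1A, BLMH, CAPN1, CASP14, HAL and the cell type markers named were picked after their values were seen. IVL, TCHH, KPLCE, KPRP, LORICRIN, LCE1E, LCE2C and PCSK6 were also named outside this rule. The neighbours LCE4A and LCE1B did not pass the filter on dim probes, and their values are not reported here. Windows were compared with Biopython 1.88. For arrays no read depth exists, and 2 arrays per group limit the precision.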

Additional observations from a re-analysis of the deposited data

How the results depend on the processing

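The 10 genes were re-read under 9 other settings (8 for FLG and CRNN, which are not well above background on all arrays) and with each array left out. Several settings could hardly move a difference of these genes. Both changes of the filter, averaging over probes and the replicate block left each value as it was. The deposited table has the same scaling. FLG, CRCT1 and LCE3D were negative in all settings except normexp background correction, and LCE3A was positive in all (0.14 to 1.16). LCE1A, LCE2A and LCE3C, whose groups overlap, took both signs. Without scaling, the median of the 10 turned to 0.20, CRNN to 0.081, LCE1C to 0.34 and LCE3B to 0.082, with 6 of the 10 apart and higher and 3 lower. Over all genes 11256 then rose and 1046 fell (91.5% higher among those called, against 40.8%), the other genes of the complex gave 22 and 0, the envelope genes 1 lower, and the regulators 34 and 2. With normexp, all counts over all genes and over the 4 lists were 0 in limma (642 genes higher and 522 lower at an unadjusted p under 0.05), and KPNA4 fell by 1.96 (adjusted p = 0.6513). The median of the 10 was then 1.104, FLG 1.19, CRNN 1.26, CRCT1 1.05, LCE3B 0.79 and LCE3D 1.04, with 0 apart and higher and 1 apart and lower. The cause was not tested.

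Quantile normalization gave a median of -0.20 with 3 apart and higher. Among genes well above background on all arrays, 8 of the 10 remained with a median of -0.18. Median scaling and limma's trend option each put 5 other genes of the complex lower in place of 3, and averaging over probes put 1 filaggrin processing gene lower (PCSK6, -0.49, adjusted p = 0.01086).

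With each array left out in turn, genes that rose ranged from 2039 to 3456 and genes that fell from 2205 to 4565, and both were reduced by over 1.5 times without knockdown culture 1 (2117 and 2794) or 2 (2039 and 2205). KPNA4 ranged from -1.97 to -1.67. The other genes of the complex ranged from 12 to 14 higher and 0 to 4 lower, with 1 and 0 lower without knockdown cultures 1 and 2. Filaggrin processing genes ranged from 7 to 10 higher and 0 to 1 lower, with 1 lower without control culture 1 or knockdown culture 1. Envelope genes ranged from 9 to 10 higher and 2 to 6 lower, with 3 and 2 lower without knockdown cultures 1 and 2. The regulators ranged from 13 to 17 higher and 4 to 5 lower. The median of the 10 ranged from -0.43 (without control culture 1) to -0.17 (without control culture 2), with 1 to 3 apart and higher and 6 to 7 lower. A group left with 1 array was assumed to vary like the other.

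Control and knockdown arrays share replicate numbers, but their deviations did not correlate (r = -0.034 across genes), so the numbers were not taken as pairs. With the replicate number as a block 3262 genes rose and 4637 fell, and KPNA4 had an adjusted p of 0.005344. The counts and the median of the 10 cannot change with this block, as each replicate number is in both groups. Signal over background limits FLG, CRNN and the second LCE1C probe most. Comparison of protein sequences was set and not run, as no protein sequence was used here.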
